A study of Mus musculus with 15 samples.

Results

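The 9 genes described here, Rbp4, Lrat, Rdh5, Rdh11, Rdh16, Aldh1a1, Dhrs3, Retsat and Rarb, handle vitamin A and its derivatives. They were found by their symbols in the array files, where 11 of 29522 probes with a gene symbol carry one of these names, and they are 9 of 22032 gene symbols on the array. The study asked how the liver genes of mice with chemically induced liver tumours respond to forced expression of Gas1, a growth arrest gene. All mice were male CD1 mice, given as 10 weeks of age in the sample records, while the study's own account sets the end of the experiment at week 35. Group C was injected with saline, and groups T and G received DEN (diethylnitrosamine, a liver carcinogen) as 25 µg per g of body weight on day 15 after birth. From week 28 to week 34, groups C and T received an empty plasmid and group G a plasmid, pcDNA3/CAG-HAGas1, with tagged Gas1 behind the CAG promoter, which is active in most cell types. Delivery was weekly by hydrodynamic injection of 50 µg of plasmid, which all 3 groups therefore share, and which reaches a fraction of the liver cells, mainly near vessels.

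Dietary vitamin A reaches the liver mainly as retinyl ester in chylomicron remnants, is hydrolysed to retinol in hepatocytes, and is stored again as retinyl ester, mostly in the droplets of hepatic stellate cells. When it is needed, the ester is hydrolysed, and hepatocytes release retinol into the blood on its carrier RBP4, which travels with transthyretin. Retinol can also be oxidised, first to retinal by dehydrogenases of the RDH and ADH families and then irreversibly to retinoic acid by the ALDH1A enzymes. Retinoic acid binds the RAR receptors, which with RXR partners act on genes that hold a retinoic acid response element, and CYP26 enzymes break it down.

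Each of the 9 genes except Rarb was read by a single probe, so a value stands on 1 stretch of 60 bases of its mRNA. Rarb had 3 probes. The first 30 bases, 5′ to 3′, of the probes of the 3 genes whose level passed the test in any comparison are shown because the results rest on them.
Rdh16 probe: aggacagatctacagccccaagtatgggta
Rdh11 probe: aaatctggcagtctgaagctttggcttctg
Aldh1a1 probe: gactagttgtgacttaagctctgtccctca
The files place the whole probes on build mm9 at chr10:127252579-127252638 (plus strand) for Rdh16, at chr12:80276608-80276667 (minus strand) for Rdh11 and at chr19:20717764-20717823 (plus strand) for Aldh1a1. They list a transcript for each probe and no exon or UTR.

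Promoter windows of 300 bases, from 250 before to 50 after the start, were taken from RefSeq (GRCm38.p6) for all 9 genes, 14 windows in all. They were searched on both strands for a pair of half-sites in the same direction, each half-site being AGGTCA or one of its variants AGTTCA and also GGGTCA and also GGTTCA, with a spacing of 5 bases (a DR5 element), 2 bases (DR2) or 1 base (DR1), and for AGGTCA alone, which overlaps those pairs. The DR5 element was in 0.0974% of all 32851 windows, and among the 14 it was found in Rarb alone, 53 bases before the start. DR2 and DR1 elements, held by 0.268% and 0.222% of all windows, were in none of the 14. AGGTCA was in 2 of the 14, those of Rdh16 and Rdh11, against 16.3% of all windows. Of 67 other listed retinoid genes, 49 had such windows, and among these only Cyp26a1, a retinoic acid hydroxylase, had a DR5 element. The upstream part of the Rarb window and the 30 bases around the Cyp26a1 element are given with the DR5 element in capitals. The Rdh16 window is given up to the start of its gene record with its reverse AGGTCA in capitals, because that gene differed most between T and C.
Rarb, chr14:16575477-16575726, minus strand: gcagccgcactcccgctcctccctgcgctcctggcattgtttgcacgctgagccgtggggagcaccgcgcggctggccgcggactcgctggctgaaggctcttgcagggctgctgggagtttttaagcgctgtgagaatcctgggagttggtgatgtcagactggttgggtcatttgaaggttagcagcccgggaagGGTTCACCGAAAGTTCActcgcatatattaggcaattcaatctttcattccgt
Cyp26a1, chr19:37697770-37697799, plus strand: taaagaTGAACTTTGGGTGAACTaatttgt
Rdh16, chr10:127800903-127801089, plus strand: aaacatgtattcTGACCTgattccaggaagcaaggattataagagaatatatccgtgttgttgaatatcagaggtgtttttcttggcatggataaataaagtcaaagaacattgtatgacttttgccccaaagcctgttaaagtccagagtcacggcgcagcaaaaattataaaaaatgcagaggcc

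The 15 arrays, 4 of group C, 5 of T and 6 of G, lay on 2 slides that each held all 3 groups. A pair of arrays in C and a pair in T carried the same RNA code and lay closer to each other than to any other array of their group, so each pair was averaged, which left 3, 4 and 6 samples, called mice here. The labels number all 15 arrays as separate samples and do not say that such a pair is 1 mouse. With 15 separate arrays 5 of the 9 genes passed in T against C in place of 3, but over all 22032 genes 1949 passed in place of 523. Each pair had 1 array on each slide, so values within the slides share these mice and are not independent. Between 15707 and 29765 spots per array were well above background and no spot was marked saturated. All 8 hepatocyte markers listed were above background on every array, and the mean log2 level of that list was 15.02 to 15.15 in C, 14.95 to 15.14 in T and 14.85 to 15.24 in G. The mean hides unlike changes: 4 of the 8 were lower in T than in C. Of the 8, 1, Ttr, was lower with a limma adjusted p under 0.05, as were 1.20% of all genes. The 12 stellate cell markers had mean levels of 7.60 to 7.78 in C, 7.17 to 7.62 in T and 7.49 to 7.70 in G, and Gfap was above background on no array. Gas1 itself, on 3 probes, was 0.08 higher in G than in T (SE 0.0780, 95% interval -0.09 to 0.25, limma adjusted p = 0.765), so a difference in Gas1 was not detectable in whole liver on these probes. Whether these probes read the delivered, tagged gene was not tested. The paper reported its mRNA by RT-PCR and its protein by western blot in liver after delivery. In a list of 12 circadian clock genes, which follow time of day and feeding in liver, the mean level was 6.97 to 7.34 in C, 7.63 to 8.06 in T and 7.75 to 8.25 in G, without overlap between C and the other groups.

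Values below are log2 intensities after background correction with an offset of 50 and quantile normalisation, so folds of dim genes are understated. Differences come from limma fitted over all 22032 genes with Benjamini-Hochberg adjustment, and a gene is said to have risen or fallen where its adjusted p was under 0.05. All 9 genes had a lower mean in T than in C, with a median difference of -0.35 against 0.01 over all genes, but under median scaling, which moved the median of the 7931 genes detected on all arrays to 0.64, only 4 of the 9 were lower. 3 of the 9 fell in T, Rdh16, Rdh11 and Aldh1a1, where 2.37% of all genes changed and 1.20% fell. In 5 of the 9 no T mouse overlapped a C mouse, as in 19.1% of all genes. Between G and T none of the 9 passed, where 0.132% of all genes did, and 2 of 9 had an unadjusted p under 0.05 against 10.8% of all genes. Between G and C 1 of the 9 fell, Rdh11, where 0.427% of all genes changed and 0.263% fell. The 3 comparisons share their groups and are not independent of one another.

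**Figure D1:**
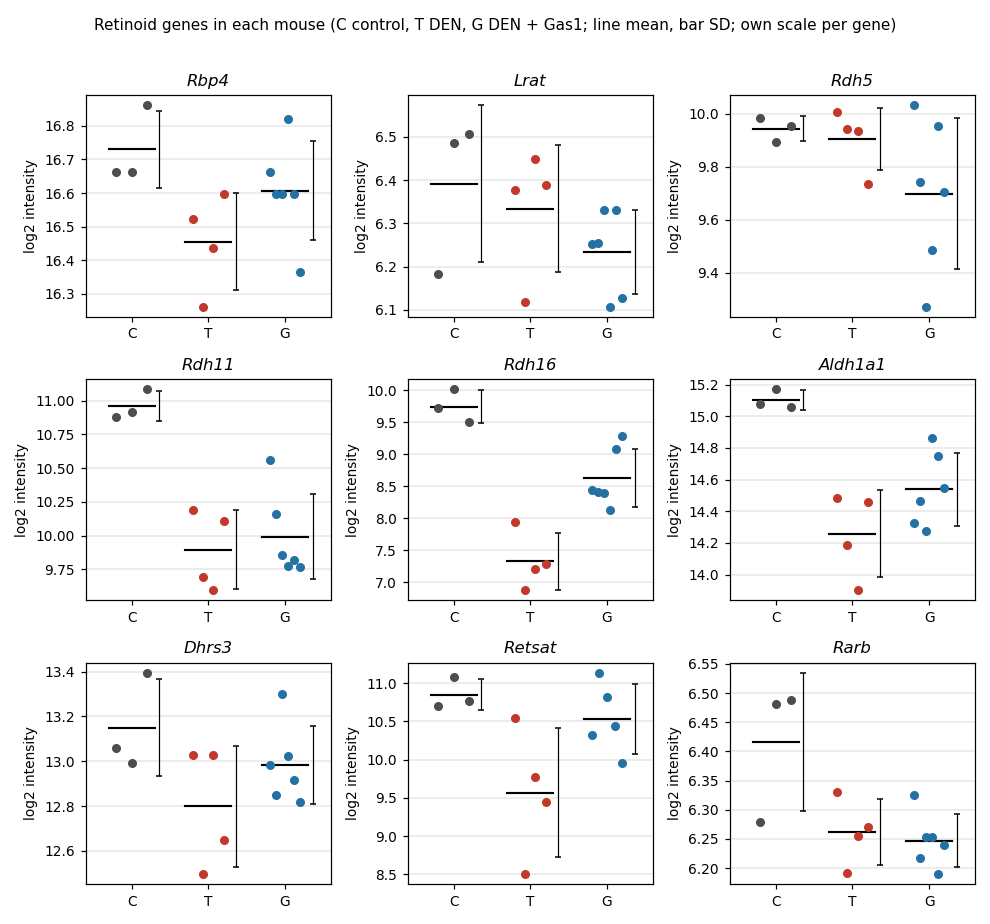
Log2 intensity (y axis, a separate scale for each gene) of the 9 retinoid genes in each mouse of groups C (3 mice), T (4 mice) and G (6 mice, 5 for Retsat). Points are mice, horizontal lines group means and vertical bars the SD. For Rdh16 the 3 groups do not overlap, with C from 9.50 to 10.02, G from 8.13 to 9.29 and T from 6.87 to 7.94.

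Among the retinol dehydrogenases, Rdh16, a microsomal enzyme that oxidises retinol and also some steroids, gave the widest separation. Its log2 level was 9.72, 10.02 and 9.50 in the C mice and 7.94, 6.87, 7.20 and 7.29 in the T mice. In the 6 G mice it ran from 8.13 to 9.29 with a median of 8.42. Every G mouse therefore lay above every T mouse and below every C mouse. Rdh16 fell by 2.42 in T against C (SE 0.287, adjusted p = 0.00413), a 5.34-fold difference that ranked 8 by p among all genes. Within the slides the difference was -2.71 and -2.11, and under median scaling it was -1.58 with an adjusted p of 0.0293. In G it was 1.30 above T (SE 0.243), a 2.46-fold difference, but the adjusted p was 0.0663. In the 13 fits that each left out a mouse this p ran from 0.0217 to 0.197, and 1 of them passed, that without T mouse 1 (1.50). In that fit 117 of all genes passed in place of 29. Groups G and T did not overlap for 1 of the 9 genes, Rdh16, and for 3.10% of all genes. Against C, Rdh16 in G was 1.12 lower (SE 0.266, adjusted p = 0.0926). With a mouse left out that p ran from 0.0381 to 0.266, and only the fit without G mouse 6 passed. In that fit 158 of all genes passed in place of 94. Under median scaling the difference of G from C was -0.30.

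The Rdh16 gene has close relatives beside it on chromosome 10, and the array files do not say how far their mRNAs share signal on its probe. Their own probes gave smaller differences. Rdh7 was -0.01 in T against C (95% interval -0.48 to 0.46) and 0.09 in G against T (-0.31 to 0.48). Rdh9 was -0.34 (95% interval -0.64 to -0.03) and 0.34 (0.08 to 0.60) in those comparisons, with adjusted p values of 0.21 and 0.32. These were the directions of Rdh16. Rdh1 was above background on no array.

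Rdh11, which interconverts retinol and retinal in the endoplasmic reticulum, stood at 10.88, 10.92 and 11.09 in C and at 10.19, 9.69, 9.59 and 10.11 in T. In G the lowest, median and highest values were 9.77, 9.84 and 10.56. Both DEN groups lay below all C mice and overlapped each other. Rdh11 fell by 1.06 in T (SE 0.193, adjusted p = 0.0199), a 2.09-fold difference, and by 0.97 in G against C (SE 0.179, adjusted p = 0.0423). G and T differed by 0.09 with a 95% interval of -0.26 to 0.45. In T against C the slides gave -1.10 and -1.03. Under median scaling the differences from C were -0.10 in T and -0.11 in G and neither passed, while relative to the median of the detected genes they were -0.74 and -0.67. Both calls were close to the threshold. The first was lost without C mouse 1, C mouse 2, T mouse 2 or T mouse 3 (adjusted p from 0.0513 to 0.0624), and the second in 9 of the 13 fits that left out a mouse, its adjusted p running from 0.0248 to 0.129.

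Rdh5, best known as an enzyme of the visual cycle, passed in no comparison. Its level was 9.98, 9.89 and 9.95 in C and 10.01, 9.94, 9.93 and 9.73 in T. In G it ranged from 9.27 to 10.03 around a median of 9.72, the widest spread of the 3 groups. The T and C means differed by -0.04 (95% interval -0.36 to 0.28) and the G and T means by -0.21 (-0.48 to 0.07). The files list a genomic span of only 12 bases for its 60-base probe.

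Dhrs3 works in the opposite direction and reduces retinal back to retinol. It read 13.06, 12.99 and 13.40 in C and 13.03, 12.50, 13.03 and 12.65 in T, so 2 T mice overlapped the C range and 2 did not. The G mice lay between 12.82 and 13.30. The difference of T from C was -0.35 (SE 0.150, adjusted p = 0.216) and that of G from T 0.18 (adjusted p = 0.648).

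Aldh1a1, the cytosolic enzyme that turns retinal into retinoic acid, was 15.08, 15.17 and 15.06 in C and 14.49, 14.19, 13.90 and 14.46 in T. In G it ranged from 14.27 to 14.86 with a median of 14.51. No mouse of T or G reached the C range, and T and G overlapped. Aldh1a1 fell by 0.84 in T (SE 0.156, adjusted p = 0.0202), a 1.80-fold difference, with -0.80 and -0.78 within the slides, but under median scaling the sign turned to 0.24, which was -0.40 relative to the median of the detected genes. Without C mouse 1, C mouse 2, T mouse 2 or T mouse 3 its adjusted p was 0.0526 to 0.07. G was 0.28 above T (95% interval -0.01 to 0.57), or 0.16 without T mouse 3, and 0.57 below C, the latter with an adjusted p of 0.117, and under median scaling G was 0.30 above C.

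Retsat, retinol saturase, converts retinol to dihydroretinol and varied most among the T mice. Its values were 10.70, 11.08 and 10.76 in C and 10.54, 8.50, 9.78 and 9.44 in T. The 5 measured G mice ran from 9.96 to 11.14 with a median of 10.44. The spot of G mouse 5 was an outlier on its array and is missing from the fit, and C mouse 3 rests on 1 of its 2 arrays. T mouse 1 lay just under the C range and the other three well below it. The difference of T from C was -1.28 (SE 0.393, adjusted p = 0.102), with -1.94 and -0.79 on the slides. With a mouse left out its adjusted p ran from 0.0306, without T mouse 1, to 0.215, and the other 12 fits did not pass. Without T mouse 1, 746 of all genes passed in that comparison in place of 523. G was 0.97 above T (SE 0.345, adjusted p = 0.337), or 0.61 without T mouse 2, and 0.31 below C (95% interval -1.14 to 0.51), or 0.17 below without G mouse 6.

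**Figure D2:**
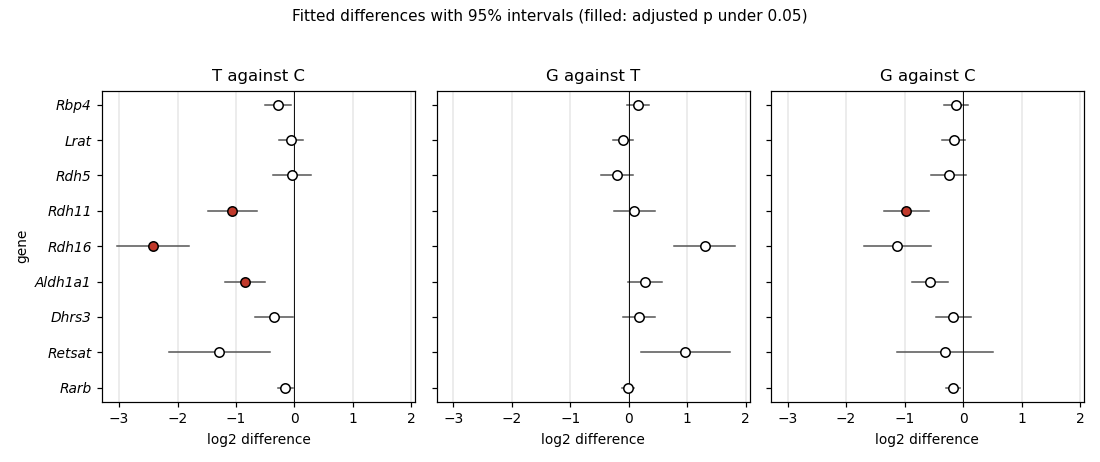
Log2 difference (x axis) of each of the 9 genes (y axis) for T minus C, G minus T and G minus C, as points with 95% intervals from the fit over 13 mice. Filled points had an adjusted p under 0.05: Rdh16 (-2.42), Rdh11 (-1.06) and Aldh1a1 (-0.84) in T against C, and Rdh11 (-0.97) in G against C.

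Rbp4, the blood carrier of retinol made by hepatocytes, was 16.66, 16.66 and 16.86 in C and 16.52, 16.26, 16.44 and 16.60 in T. In G it ran from 16.37 to 16.82 with a median of 16.60. The T mice lay below the C mice by a narrow margin and G overlapped both. After quantile normalisation Rbp4 had the same value, 16.5981, on arrays T4, T5, G2, G3 and G5, and 16.6642 on C1, C2 and G1. Its values are thus ranks among the brightest spots, and the margin is a matter of few ranks. The difference of T from C was -0.28 (SE 0.102, adjusted p = 0.156), under median scaling 0.81 and in the authors' own normalised values 0.19, so its sign depended on the processing. G differed from T by 0.15 (95% interval -0.03 to 0.34).

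Lrat esterifies retinol for storage and in liver belongs mainly to stellate cells. In whole liver its probe was dim, well above background on 2 of 4 C arrays, 3 of 5 T arrays and 3 of 6 G arrays. The values were 6.18, 6.48 and 6.51 in C, 6.38, 6.12, 6.45 and 6.39 in T, and 6.11 to 6.33 in G. The groups overlapped. The differences were -0.06 in T against C (95% interval -0.27 to 0.15) and -0.10 in G against T (-0.28 to 0.08). Of the 12 stellate cell markers, Ecm1 and Ngfr fell and Vipr1 rose in T against C, where 2.37% of all genes changed. The differences were 0.86, 0.69 and 0.48 in size, and none passed between G and T. In RNA of whole liver, fewer cells of a type and less RNA per cell cannot be told apart.

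Rarb encodes a retinoic acid receptor and is known as a gene that retinoic acid itself induces through an element of the DR5 kind. Its mean over probes was 6.28, 6.48 and 6.49 in C, 6.33, 6.19, 6.26 and 6.27 in T and 6.19 to 6.33 in G, and 1 C mouse overlapped both other groups. The differences from C were -0.15 in T (SE 0.0592, adjusted p = 0.171) and -0.17 in G (SE 0.0548, adjusted p = 0.204). The 3 probes were all lower in T and in G than in C, by unlike amounts. One was above background on all 15 arrays and differed from C by -0.33 in T and -0.45 in G. The other two, above background on 8 arrays and on none, stayed between -0.08 and -0.02. With the brightest probe alone, Rarb in G against C had an adjusted p of 0.041. Cyp26a1, the other gene found with the element, was -0.38 in T (95% interval -1.07 to 0.31) and -0.16 in G against T (-0.74 to 0.42), with C mice at 6.65, 7.73 and 7.72.

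Groups G and C did not overlap for 3 of the 9 genes, Rdh16, Rdh11 and Aldh1a1, and for 5.95% of all genes. The order of the group means was C, G, T for Rdh16, Rdh11, Aldh1a1, Retsat, Dhrs3 and Rbp4, and for Lrat, Rdh5 and Rarb G was lowest. This order depended on the scaling. Under median scaling 5 of the 9 genes were higher in T than in C, Aldh1a1, Rbp4 and Dhrs3 among them, and 5 were lower in G than in T, as were 5 with the processed signal. Only for Rdh16 were all neighbours in that order separated in every mouse, and for Rdh11 and Aldh1a1 the neighbours G and T did not differ beyond their spread.

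Beside the comparisons with C, 4 of the 12 clock genes rose in T, where 2.37% of all genes changed. These were Dbp by 3.71, Tef by 1.52, Nr1d1 by 0.97 and Nr1d2 by 0.96. In G against C 3 of the 12 rose, where 0.427% of all genes changed. These were Dbp by 4.29, Tef by 1.68 and Nr1d1 by 1.49, and between G and T none passed. The 6 Kupffer cell markers had mean levels of 7.44 to 7.87 in C, 7.81 to 8.49 in T and 7.80 to 8.27 in G, and 1 of them, Emr1, rose in T by 0.31. Cholangiocyte markers averaged 6.48 to 6.57 in C and 6.33 to 6.46 in T, and lymphocyte markers 6.46 to 6.56 in C and 6.64 to 6.73 in T, without overlap, but no gene of either list passed. The 7 periportal hepatocyte markers averaged 10.93 to 11.39 in C, 11.09 to 11.58 in T and 11.42 to 11.92 in G, so that G lay above C, and none of them passed in any comparison. The part of these differences in the retinoid values was not tested.

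Of 67 other genes of the retinoid pathway, 65 were on the array and 42 were above background on all arrays of a group. In T against C 6 of the 65 passed, 1 higher and 5 lower, with a median difference of -0.01, and 23 had an unadjusted p under 0.05, where 2.37% of all genes passed and 20.2% had such an unadjusted p. Between G and T none passed and 18 had an unadjusted p under 0.05, where 0.132% and 10.8% of all genes did. Between G and C 1 passed and 17 had an unadjusted p under 0.05, where 0.427% and 13.3% of all genes did.

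The carrier that fell was Ttr, transthyretin, which holds RBP4 in the blood. It was 16.85, 17.03 and 16.59 in C and 16.06, 15.60, 15.84 and 15.80 in T. In G it ranged from 16.26 to 16.62, above every T mouse. Ttr fell by 1.00 in T (SE 0.124, adjusted p = 0.00425) and under median scaling stood at 0.18. It was 0.60 above T in G (SE 0.105, adjusted p = 0.0563). With a mouse left out that p ran from 0.0215 to 0.165, and only the fit without T mouse 1 passed (0.68). In that fit 117 of all genes passed in place of 29. Stra6, a membrane receptor for RBP4, was above background on no array.

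Of the 10 genes of retinyl ester formation and hydrolysis, 9 were lower in T than in C, with a median of -0.58, where 48.2% of all genes were lower. Median scaling moved the median of the detected genes by 0.64, more than that in size. Lpl went the other way, 1.08 higher in T (adjusted p = 0.105), and its T and C mice did not overlap. Of the 9, Lipe and Pnpla2 differed by only -0.03 and -0.02. 1 of the 10 passed, where 1.20% of all genes fell. This was Lipa, the lysosomal acid lipase, at 10.92, 10.92 and 11.16 in C and 10.58, 10.11, 9.71 and 9.86 in T. Lipa fell by 0.94 (SE 0.186, adjusted p = 0.0274) and was 0.04 under median scaling. In G it lay between 10.39 and 10.98, with 5 of the 6 mice above all T mice, and was 0.75 above T (adjusted p = 0.0883). Pnpla3, a lipid droplet lipase that acts on retinyl esters, was 0.88 below C in T (adjusted p = 0.0823) and 1.09 below C in G (adjusted p = 0.0663). Ces1g was 1.80 below C in T (adjusted p = 0.0529). Ces1d, Ces1e, Ces1f and Ces1g each had their lowest value in T mouse 2, and how far these related genes share signal was not tested.

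None of the 15 other oxidoreductases of retinol and retinal passed in any comparison, and their differences of T from C ran from -0.45 to 0.27. Adh4, an alcohol dehydrogenase active on retinol, was 0.60 higher in G than in T (SE 0.115, adjusted p = 0.0728). Rdh10, the dehydrogenase that feeds retinoic acid synthesis in the embryo, differed by 0.02 between T and C (95% interval -0.16 to 0.20). Among the 6 genes of retinal oxidation, Aldh1a7, a close relative of Aldh1a1 that can share signal with it, stood at 12.38, 12.13 and 12.02 in C and 11.12, 11.52, 10.62 and 11.36 in T. It fell by 1.02 in T (SE 0.183, adjusted p = 0.0199). The G mice ranged from 11.29 to 11.79, 0.65 below C (adjusted p = 0.12). Aldh1a2 was above background on 2 G arrays and on no other.

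None of the 5 genes of retinoic acid breakdown passed, and their differences of T from C ran from -1.45 to 0.27. Cyp2c39 was lowest (adjusted p = 0.0615), its T and C mice did not overlap, and it was 1.05 higher in G than in T (adjusted p = 0.237). Cyp26b1, with 5 measured G mice from 6.10 to 8.73, had an interval of -2.11 to 0.83 in T against C. None of the 5 listed retinoic acid targets and none of the 7 receptors passed either. Among the receptors, Rara was 0.16, Rarg 0.39 and Rxra 0.34 higher in T than in C, with adjusted p values of 0.354, 0.192 and 0.0876. Rxrg was 0.33 lower in T (adjusted p = 0.0514) and 0.36 lower in G (adjusted p = 0.0592), and no mouse of either group reached the C values of 8.49 to 8.50.

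The gene that rose in T was Bcmo1, the oxygenase that splits beta-carotene into retinal. Its values were 6.68, 6.60 and 6.65 in C, 6.81, 7.11, 6.94 and 7.15 in T and 6.50 to 6.77 in G. It rose by 0.36 in T (SE 0.0832, adjusted p = 0.0446) and was 0.38 lower in G than in T (adjusted p = 0.0658), where the mice did not overlap. The other calls were for carriers known from the retina. Rbp3 fell by 0.84 in T (adjusted p = 0.0482) and was 0.02 under median scaling. Rlbp1 fell in T (adjusted p = 0.0174) and in G (adjusted p = 0.0465). Its probe, however, was well above background on 3 C arrays, on no T array and on 3 G arrays. The difference of Rlbp1 in T from C was -0.35 (SE 0.0603), a 1.27-fold difference that rests on T values not well above background. Without C mouse 1 or C mouse 2, 1 of these 6 calls in T against C was left, that of Ttr. Over all 13 fits that left out a mouse, the calls of Bcmo1 and Rbp3 were each lost in 9, that of Lipa in 6, that of Rlbp1 in 3 (11 in G against C) and that of Aldh1a7 in 2.

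**Figure D3:**
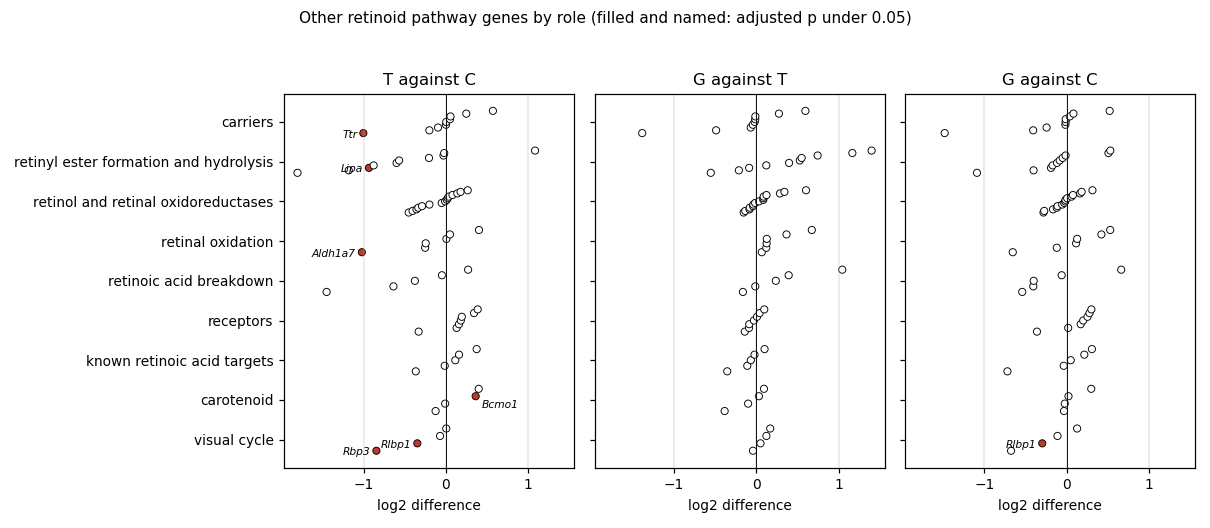
Log2 difference (x axis) of the 65 other retinoid pathway genes, 1 point per gene, grouped by role (y axis), in each of the comparisons. Filled and named points had an adjusted p under 0.05: Ttr, Lipa, Aldh1a7, Bcmo1, Rbp3 and Rlbp1 in T against C and Rlbp1 in G against C, with none in G against T.

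For Lrat and each gene that fell, the genes with the most similar pattern over the 13 mice were sought among about 7930 genes above background on all arrays, as the smallest root mean square difference of mean-centred log2 values. For Rdh16, whose own values spread by 0.961 around their mean, these were Pltp at 0.318, Me1 at 0.318 and Elovl5 at 0.379. Pltp transfers phospholipids between lipoproteins, Me1 is the cytosolic malic enzyme and Elovl5 elongates polyunsaturated fatty acids. Pltp fell by 2.86 in T against C (adjusted p = 0.0041), Me1 by 2.06 (adjusted p = 0.0103) and Elovl5 by 1.61 (adjusted p = 0.0112), and in G they were 1.45, 1.13 and 0.79 above T with adjusted p values of 0.079, 0.111 and 0.158. They were chosen for their likeness, so these values describe them and support nothing about Rdh16.

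The nearest genes to Rdh11, which spread by 0.492, were Pmvk at 0.143, Sc5d at 0.219 and Ppp1r1b at 0.227. Pmvk and Sc5d are enzymes of cholesterol synthesis, and Ppp1r1b encodes an inhibitor of protein phosphatase. In T against C they were -1.14, -0.80 and -0.97, and in G against T 0.15, -0.09 and 0.10. The nearest to Aldh1a1, with a spread of 0.366, were Cmbl, a hydrolase, at 0.156, Tmie at 0.170 and Hpgd, which inactivates prostaglandins, at 0.172. For Lrat, which spread by only 0.134, they were Tex10 at 0.0747, Ndrg3 at 0.0768 and 1110034B05Rik at 0.0823, which says little, since the Lrat probe was near background.

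**Figure D4:**
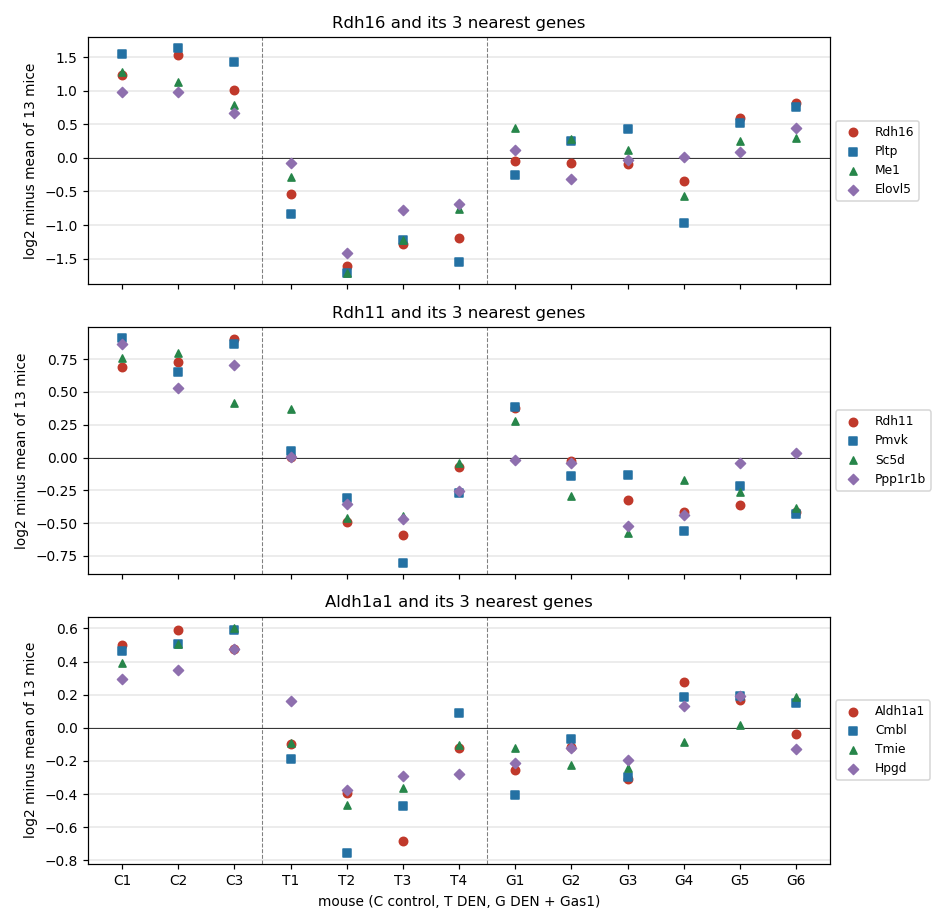
Log2 intensity minus the mean of the 13 mice (y axis) in each mouse (x axis, dashed lines between groups C, T and G) for Rdh16, Rdh11 and Aldh1a1 with the 3 genes nearest to each. Rdh16, Pltp, Me1 and Elovl5 are high in C, lowest in T mouse 2 and mostly in between in G, while in the Rdh11 panel T and G overlap.

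**Figure D5:**
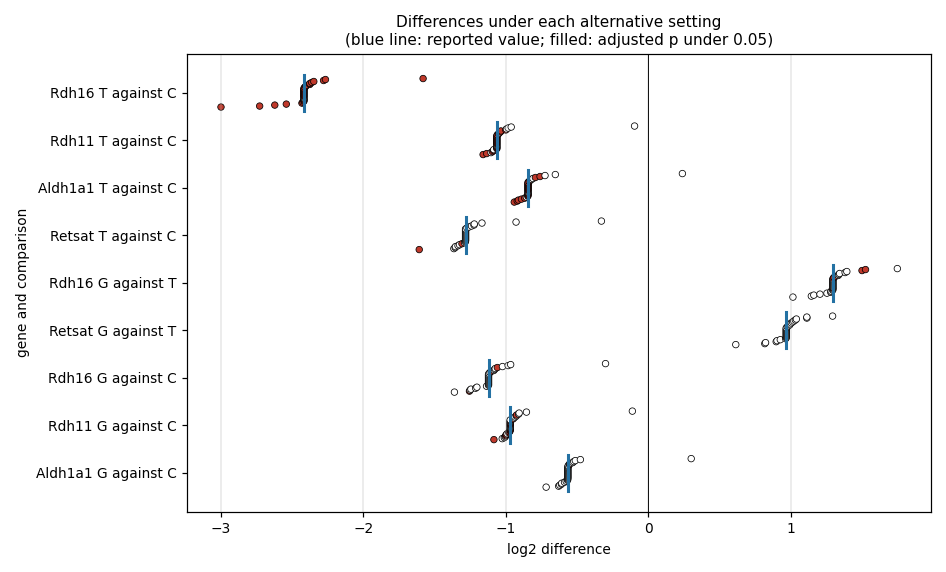
Log2 difference (x axis) of the 9 pairs of gene and comparison on the y axis under each of 30 alternative settings (points) and as reported (blue line). Filled points had an adjusted p under 0.05. The lone points far to the right in the comparisons with C are from median scaling, such as -0.10 for Rdh11 and 0.24 for Aldh1a1 in T against C.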

How the data were processed

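Liver RNA was labelled with Cy3 and hybridised to single-colour mouse arrays. Per the file headers, the authors deposited spot intensities from Agilent Feature Extraction 10.7.3.1, not normalised between arrays, with other flags for outliers and for spots well above background, and probe positions on mm9. They also deposited a table of log2 values after normexp correction and quantile normalisation, which was used as an alternative.

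Mean intensities were corrected with limma 3.58.1 (normexp, offset 50) and quantile-normalised in R 4.3.3. Outlier spots were left out, spots of a probe averaged, and probes of a symbol centred and averaged. Arrays of the same RNA code were averaged where their SD was under 0.7 of that of the next closest pair. The ratios were 0.501 and 0.608. limma fitted 1 mean per group over 13 mice, with Benjamini-Hochberg adjustment over 22032 genes. How mice were assigned to cages or litters is not given in the sources used here, and the p-values measure only the spread between these samples. On simulated T against C data (22031 genes), 93% of changes of 1 and 100% of changes of 2 log2 units were recovered, with 11 false calls. The changed genes were drawn at random from all symbols, dim ones included, with independent noise at each gene's own spread. These shares therefore do not give the recovery for variable genes, and Retsat, at -1.28 (SE 0.393) in T against C, was not called.

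Named genes were the 9 members, pathway genes that passed or had the 3 lowest p values in a comparison, 10 pathway genes named in any case (1 of them is not reported here), and the 3 nearest profiles. Rdh1, Rdh7, Rdh9, Cyp2c39, Lpl, Lipe, Pnpla2, the Ces1 genes and the markers named were added after their values were seen. Members and lists were chosen with earlier results of these data known. The number of arrays limits the precision. Alternatives covered background, scaling, filters, arrays kept apart, slide, t-tests and each mouse left out.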

Additional observations from a re-analysis of the deposited data

Results flagged for a closer look

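In 4 of 78 groups of 4 to 6 mice, tested gene by gene, 1 mouse lay far from the others. Chance alone gives about 1 in 20. The gap of the outlying mouse was a share of 0.661 of the group's range for Lipa in group G (mouse 2, at 10.39), 0.854 for Rbp3 in group T (mouse 2, at 8.77), 0.67 for Me1 in group G (mouse 4, at 10.29) and 0.634 for 1110034B05Rik in group G (mouse 6, at 6.59). None of the 9 retinoid genes was among them.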

How the results depend on the processing

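Of the 9 genes, 3 passed in T against C. This became 1 with the processed signal scaled to the 75th percentile, 1 with median scaling, 5 with 15 arrays as separate samples, 0 with either form of the methods' t-test (4 had an unadjusted p under 0.05 in each), and 1 to 4 with a mouse left out. Either t-test called 0 of all 22000 genes it tested in that comparison. Over all genes, 523 passed as reported, 57 with the processed signal, 2876 with median scaling and 1949 with 15 arrays. With a mouse left out 95 to 746 of all genes passed. In G against T the 0 became 1, Rdh16, with an offset of 16, without dim probes, with 15 arrays, with the RNA code as a random block and with slide as a term, and was 0 to 1 with a mouse left out. Over all genes, 29 passed as reported and, in the settings named and in that order, 25, 78 (of 10493), 268, 90 and 75. With a mouse left out 4 to 117 of all genes passed. In G against C the 1 became 0 with the processed signal, median scaling, cyclic loess, either t-test, the replicate block and only the groups compared, 2 without dim probes, with the brightest probe and with the random block, 3 with 15 arrays, and 0 to 2 with a mouse left out. Over all genes, 94 passed as reported. In the settings with 0 of the 9 these were 1, 0, 1, 5 and 1 (t-tests), 50 and 57, in order. The others gave 161 (of 10493), 102, 228 and 338, and 8 to 202 with a mouse left out.

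Of the pathway list, 6 passed in T against C, and 0 with the processed signal or either t-test, 2 with cyclic loess or only the groups compared, 10 with slide as a term, 11 with median scaling or the random block, 16 with 15 arrays and 1 to 10 with a mouse left out. Over all genes, 186 passed with cyclic loess, 359 with only the groups compared and 814 with slide as a term. Median scaling gave 2876, 2861 of them higher, the random block 889 and 15 arrays 1949. In G against T the 0 became 1 with the brightest probe, 2 with cyclic loess or slide as a term, 5 with the random block, 6 without dim probes, 7 with 15 arrays and 0 to 5 with a mouse left out. Over all genes these settings, in that order, gave 42, 30, 75, 90, 78 (of 10493) and 268. In G against C the 1 became 0 with the processed signal, median scaling, cyclic loess, outlier spots kept, a plain mean of probes, either t-test, an intensity trend or only the groups compared, 2 with an offset of 16, 3 with 15 arrays or slide as a term, 4 with the random block and 0 to 3 with a mouse left out. Over all genes, 93 passed with outlier spots kept, 68 with a plain mean and 59 with an intensity trend. An offset of 16 gave 99, 15 arrays 338, slide as a term 181 and the random block 228.

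Among the genes named here, median scaling turned the sign of 6 called differences of T from C: Aldh1a1 (0.24), Ttr (0.18), Lipa (0.0375), Rbp3 (0.0225), Cmbl (0.12) and Hpgd (0.11). It moved the median of the detected genes by 0.64 in that comparison and by 0.56 in G against C. Rdh16 in T against C kept its direction in all 30 alternatives, with -1.58 under median scaling as the value nearest to 0, and its call in 28, the exceptions being the t-tests (adjusted p = 0.108 and 0.18). Those t-tests called 0 of all 22000 genes in that comparison. The count of all genes called was 523 (0 to 2876 over the alternatives), 29 (1 to 268) and 94 (0 to 338) in the 3 comparisons in order. The replicate numbers did not pair the mice (correlations of deviations from -0.31 to 0.25). With the replicate block, 2 of the 9 genes passed in T against C, Rdh11 losing its call (-1.05, adjusted p = 0.0508), and 0 in the other comparisons. Over all genes the replicate block called 278 in T against C, 6 in G against T and 50 in G against C. The cause of these changes was not tested. Dim probes such as those of Lrat and Rarb limit what their differences can show.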
